A study of Drosophila melanogaster with 6 samples.

Results

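Neuronal identity factors are the DNA-binding proteins that fix what type a neuron becomes and keep it that type, and 41 of their genes are described here in sorted output neurons of the Drosophila melanogaster mushroom body. The genes were chosen by symbol from the homeodomain, POU, LIM, zinc-finger and basic helix-loop-helix families. The rule sets no threshold on a measured value, but earlier results of these data were known when the list was drawn up. All 41 were found among the 17117 genes of the authors' deposited table. The member Imp encodes an RNA-binding protein rather than a transcription factor and was kept because it marks neuronal birth order.

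The study profiled poly(A) RNA of γ5β′2a, β′2mp and β′2mp_bilateral mushroom body output neurons from mated females, 3 to 4 days after eclosion, and the brains were taken at ZT12 to ZT13.5, counted in hours from lights-on. In every fly the parts of a split GAL4 driver (R14C08-p65.AD with R15B01-GAL4.DBD, named MB011B in the labels) drove UAS-CD8::GFP, a membrane label used for fluorescence-activated sorting. The same driver expressed UAS-bantam_sponge in 1 genotype and UAS-scramble_sponge in the other, with the sponge on both the driver chromosomes. The sponge transcript carries sites for a microRNA, here bantam, and is meant to take it away from its targets; the scrambled version serves as the control. Each genotype had 3 libraries, labelled biological replicates. The p-values set the difference between genotypes against the spread that edgeR estimated from these libraries. That spread includes any effect of the sequencing instrument, which differed between replicates. Expression of the sponge is thus limited to the cells in which this driver was active, and the 3 output neuron types were pooled.

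Homeodomain, POU and LIM proteins act in combination, so that a neuron type is set by which of them are on and which are off. Some act early, in dividing precursors, and others stay on in the mature neuron and maintain its transmitter, receptors and wiring. In the mushroom body, BTB zinc-finger proteins such as chinmo and mamo are known for setting which neuron type is born at which time.

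Depth varied widely. The effective library sizes that the lowest values of the table imply ran from 8.18 to 119 megareads with the bantam sponge and from 5.31 megareads up with the scramble sponge, 22.4-fold in all. The libraries are called largest, middle and smallest of their genotype, because the table does not tie a size to a replicate number. For scarce genes the whole number of reads in each library could also be solved from the 3 deposited values. This gave 13 of the members. For 18 more abundant ones the level in each genotype is given as a mean that the deposited fold and mean imply, with no SD. Neuronal transcripts were abundant in the sorted cells, with markers of several transmitters among them. The synaptic vesicle gene nSyb stood at 320 CPM (read counts scaled to library size) per kb of exon and VGlut, the vesicular glutamate transporter gene, at 291.

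Of the 41 factor genes 31 (75.6%) had at least 1 read, against 54.3% of all genes in the table. Those with no read in any library were sens, ase, nub, pdm2, so, ems, otp, exex, eve and unpg. At the summed depth of 318 megareads, a count of 0 allows up to 0.00944 CPM, by counting error alone; after 25 PCR cycles single reads no longer stand for single molecules. The genes with reads had a median of 4433 exonic bases and those without 2465, where all genes with reads had 2055 and those without 934.

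Levels ran over nearly the whole range of the transcriptome. Per kb of exon, the 31 genes with reads had a median of 5.70 CPM, below the 13.0 CPM of all genes with reads. An upper group of 7 genes, pros, dac, tup, pdm3, Rx, crp and exd, lay in the top 25% of genes with reads (50.2 CPM per kb or more), a limit that 25% of genes pass by construction. The lowest of them, exd, was at 60.9 CPM per kb, and the next gene below the limit, jim, at 46.9. At the other end, acj6 and Lim3 were at under 0.01 CPM per kb.

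**Figure D1:**
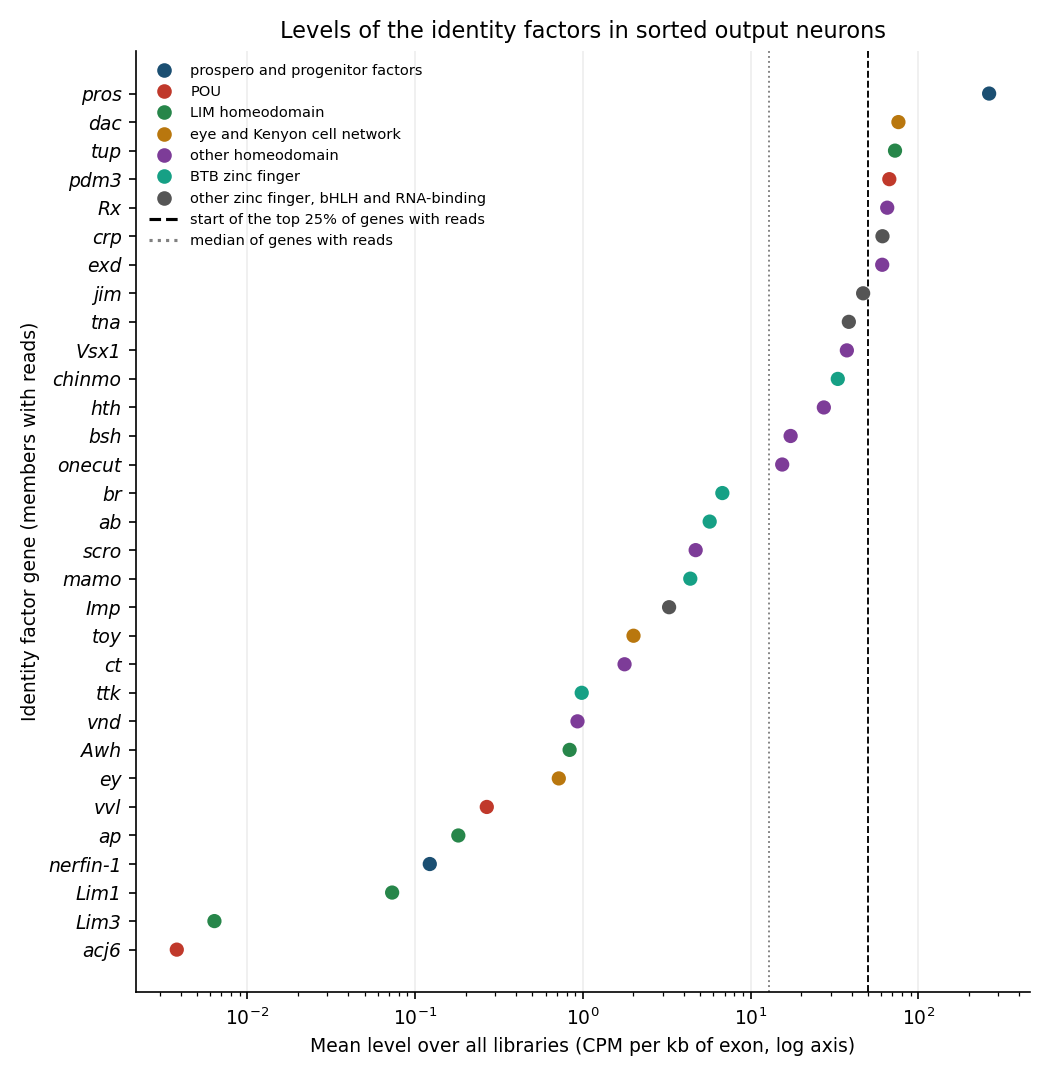
Mean level over all 6 libraries of each identity factor with reads, in CPM per kb of exon on a log axis, coloured by family. The dashed line marks the start of the top 25% of all genes with reads (50.2 CPM per kb), which 7 factors pass, and the dotted line the median of all genes with reads (13.0 CPM per kb).

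No factor passed a test of the difference between the sponges. At an adjusted p under 0.05 (the authors' edgeR exact test, Benjamini-Hochberg over all 17117 rows) 0 of the 41 passed, as did 0% of all genes. At an unadjusted p under 0.05 there were again 0, where 4.18% of genes with reads passed. At an unadjusted p under 0.1 there were 2, toy and crp, or 6.45% of the factors with reads against 9.06% of genes with reads. Folds are given as log2 ratios, positive where bantam sponge was higher. Those of the factors were above 0 for 17 and below 0 for 14 (45.2% below, 53.5% among all genes with reads). Their median log2 fold change was 0.04, against −0.13 over all genes with reads. In bulk RNA of sorted cells, a lower level in fewer of the cells and less RNA per cell cannot be told apart.

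The size of change that these libraries could show was large. For 19 factors the deposited p implied a 95% interval of the log2 fold change. All 19 intervals held 0 by construction, because each was solved from an unadjusted p that was not under 0.05. Only their widths add to the p-values. The narrowest half-width was 2.79, which is 6.94-fold on the linear scale, and the median was 3.71, which is 13.0-fold. Of the 19 intervals 18 reached past a doubling in both directions, the exception being crp, whose lower end was −0.51. A p that misses the threshold here therefore does not show that a factor was equal in the genotypes.

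**Figure D2:**
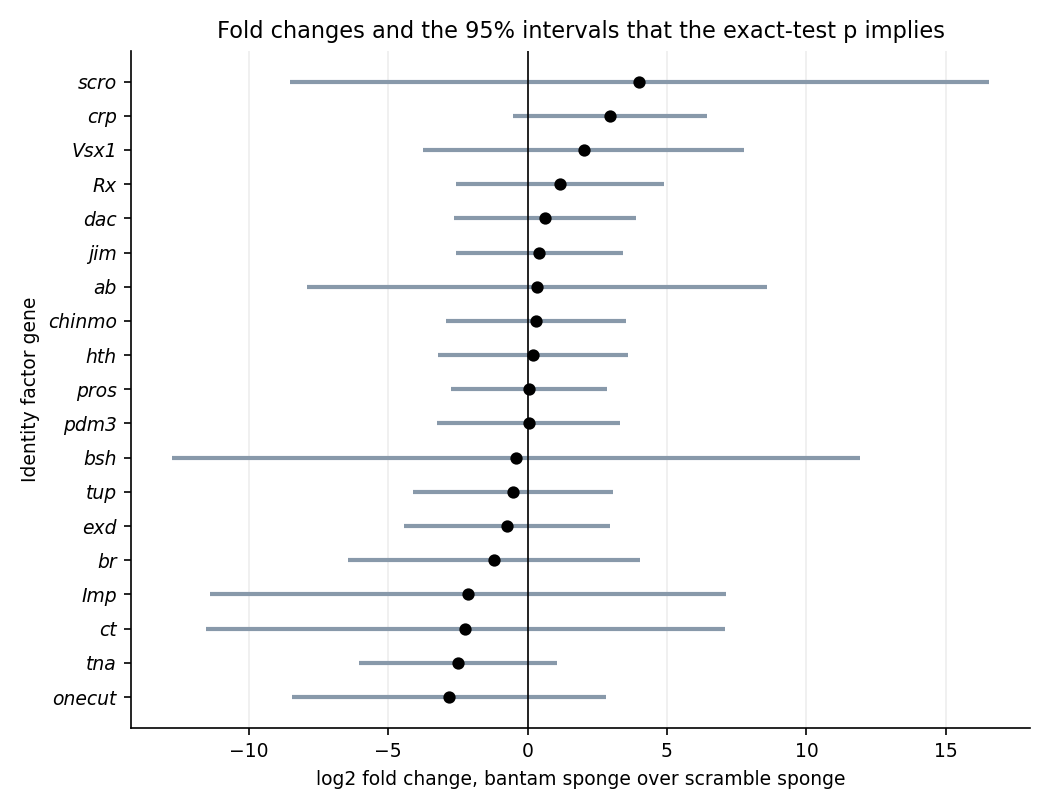
log2 ratio of bantam sponge to scramble sponge (points) and the 95% interval implied by the exact p (bars) for the 19 identity factors read in both genotypes for which an interval could be formed. Every bar crosses 0 by construction, since each was solved from an unadjusted p that was not under 0.05. The bar of pros, at −2.73 to 2.86, is the narrowest.

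The gene prospero (pros, 3R, 11328480 to 11407627, plus strand, dm6) encodes an atypical homeodomain protein that ends self-renewal in the daughters of neuroblasts and is also kept in many mature neurons. Its mean log2 CPM of 12.68 in the authors' deposited table was the highest of all 9286 genes with reads. That corresponded to 6577 CPM, a mean level over the libraries equal to 0.658% of their effective size. It was 62.0% of the summed level of the 31 factors. The gene has 24892 bases of annotated exon, and per kb it stood at 264 CPM, rank 385 of 9220 genes with reads and a length, close to the 291 of VGlut. The implied mean was 6720 CPM in bantam sponge and 6433 CPM in scramble sponge. The log2 fold change was 0.06 (95% interval −2.73 to 2.86, exact p = 0.962 in the authors' deposited table).

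The other factors grouped here with pros, known from precursors or young neurons, were scarce or had no read, unlike pros. The zinc-finger gene nerfin-1, which holds young neurons in the differentiated state, had 0, 14 and 0 reads in the largest, middle and smallest bantam sponge libraries and 0, 11 and 10 in those of scramble sponge. Its level was 0.107 ± 0.185 CPM in bantam sponge and 0.712 ± 1.02 CPM in scramble sponge (SD, n = 3, exact p = 0.557 in the authors' deposited table), and the genotypes overlapped. The proneural zinc-finger gene sens and the neuroblast gene ase, of the basic helix-loop-helix family, had no read.

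Among POU genes, pdm3 was the abundant one. It encodes a POU protein known for axon targeting of central and olfactory neurons (2R, 8327490 to 8396280, plus strand). It stood at 67.1 CPM per kb and at nearly equal implied means, 366 CPM in bantam sponge and 357 CPM in scramble sponge. Its log2 fold change was 0.04 (−3.24 to 3.31, exact p = 0.981 in the authors' deposited table). The other POU genes were close to absent. The olfactory neuron factor acj6 had 4 reads in all, from the middle scramble sponge library. Reads of vvl, known from projection neurons, numbered 906 and came from the largest bantam sponge library alone. The neuroblast temporal factors nub and pdm2 had none.

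The LIM homeodomain genes divided in the same way, with tup well above the rest. This gene (tailup, the fly islet homologue, 2L, 18859507 to 18881261, minus strand) is known from motor and serotonergic neurons. It stood at 72.6 CPM per kb, with an implied 198 CPM in bantam sponge and 283 CPM in scramble sponge. In the authors' deposited table its log2 fold change was −0.52 (95% interval −4.11 to 3.07, exact p = 0.757). The other LIM genes were read in 1 or 2 libraries each. Lim1 had 10 reads, in the smallest scramble sponge library. Lim3 had 11 reads in the largest bantam sponge library and 5 in the largest scramble sponge library. The apterous gene ap had 39 reads in the smallest bantam sponge library, and Awh 1025 in the largest scramble sponge library.

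The genes of the eye-forming network, of which dac, ey and toy also act in Kenyon cells (intrinsic mushroom body neurons), were unequal in level. The nuclear cofactor gene dac (dachshund, 2L, 16466512 to 16485998, minus strand) was second among the factors, at 76.1 CPM per kb. Its implied mean was 460 CPM in bantam sponge and 298 CPM in scramble sponge, with a log2 fold change of 0.62 (−2.65 to 3.90, exact p = 0.687 in the authors' deposited table).

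The reads of the Pax6 genes ey and toy, by contrast, came from 1 library each, apart from 1 read of toy. For toy (4, 989725 to 1007922, plus strand) there were 1, 0 and 0 reads in the bantam sponge libraries and 0, 2052 and 0 in those of scramble sponge. Its exact p of 0.083 in the authors' deposited table was the smallest of all factors, and it rests on the 47.1 CPM of the middle scramble sponge library, without which 1 read of toy remains. At that level the largest scramble sponge library would have held 4616 reads of toy. For ey there were 86 reads, all in the smallest scramble sponge library, at 16.2 CPM, which would give 1589 reads in the largest library of that genotype. The sine oculis gene so had no read.

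Markers of the cells in which these genes are known were read too. The Kenyon cell markers dac and ey are counted among the members above, with a fold above 0 for dac and below 0 for ey. All 6 other Kenyon cell markers had reads, though prt had only 1 read. Of these 6, 1 was above 0 and 5 below (median −1.45, or −1.09 with 1-genotype genes at the bound that 3 reads give). Their summed implied levels were 478 CPM in bantam sponge and 557 CPM in scramble sponge, and sNPF, mub and trio were highest, at 37.1, 21.2 and 10.5 CPM per kb. Of the 7 photoreceptor markers 5 had reads, all below 0 (median −7.89, or −5.01 with the bound), at a summed 99.1 and 249 CPM, and Arr1 and gl were at 0. The highest were Arr2, norpA and ninaE, at 13.6, 11.9 and 10.2 CPM per kb. Arr2 had 61 reads in the middle and 662 in the smallest scramble sponge library and none elsewhere (unadjusted exact p = 0.0445 in the authors' deposited table). The rhodopsin gene ninaE had 517 of its reads in the smallest scramble sponge library, where ey was read, and 2 in the largest. All 72 reads of ninaC lay in the middle scramble sponge library. The smallest one also held most reads of genes from other lists, such as Tdc2 (291), Tbh (217) and the hemocyte marker srp (145). The part of such cells in the reads of ey and toy was not tested.

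Of the 14 other homeodomain genes 9 had reads, all of them in both genotypes. The cofactors of Hox proteins, exd and hth, were both present. The gene exd was at 60.9 CPM per kb, with an implied 151 CPM in bantam sponge and 252 CPM in scramble sponge (log2 fold change −0.74, −4.45 to 2.97 in the authors' deposited table and the interval it implies). Its nuclear partner hth was at 27.3 CPM per kb, with 345 CPM and 302 CPM (log2 fold change 0.19, −3.22 to 3.60, likewise from the authors' deposited table). The Hox genes themselves were nearly unread, since of 10 Hox and related genes 3 had reads. Ubx and Abd-B had 1 read each, and ftz, a pair-rule gene, stood at 6.59 CPM per kb with a log2 fold change of −5.36 in the authors' deposited table (−13.77 to 3.04, exact p = 0.163).

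The paired-like homeodomain genes Rx and Vsx1, known from visual system and brain development, were present at 65.2 and 37.5 CPM per kb. Rx (2R, 20916753 to 20937030, plus strand) had an implied 295 CPM in bantam sponge and 132 CPM in scramble sponge, with a log2 fold change of 1.16 (−2.58 to 4.90, exact p = 0.506 in the authors' deposited table). Vsx1 had 218 CPM and 54.3 CPM, with a fold of 2.01 (−3.73 to 7.74, exact p = 0.429 in the authors' deposited table). The neuronal differentiation gene onecut was at 15.4 CPM per kb and had the lowest fold of the factors with an interval, −2.83 (−8.46 to 2.80, exact p = 0.270 in the authors' deposited table).

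The rest of the homeodomain genes were lower and uneven. The gene cut (ct), a regulator of dendrite shape and sensory neuron type, had 439, 186 and 126 reads in the largest, middle and smallest bantam sponge libraries and 0, 738 and 489 in those of scramble sponge. In CPM these were 3.69, 4.25 and 15.4 against 0, 16.9 and 92.2, so the genotypes overlapped and the largest scramble sponge library stood apart at 0. The means were 7.78 ± 6.61 CPM and 36.4 ± 49.1 CPM (SD, n = 3, exact p = 0.550 in the authors' deposited table).

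The NK2-type genes scro and vnd, the latter known for patterning the ventral nerve cord, were read in a few libraries each. For scro there were 2795, 0 and 266 reads in bantam sponge and 337, 0 and 0 in scramble sponge, in the same order of libraries. Its means were 18.7 ± 16.8 CPM and 1.15 ± 1.99 CPM (SD, n = 3, exact p = 0.417 in the authors' deposited table), with overlap at 0 reads. For vnd there were 0, 0 and 169 reads against 340, 1 and 0, or 6.89 ± 11.9 CPM and 1.16 ± 2.00 CPM (SD, n = 3, exact p = 0.622 in the authors' deposited table). The visual system factor bsh was at 17.3 CPM per kb, with the fold of −0.40 lying in a very wide interval (−12.74 to 11.94, authors' deposited table). The embryonic patterning and motor neuron genes ems, otp, exex, eve and unpg had no read.

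All 5 BTB zinc-finger genes had reads, and none was in the top 25% per length. The gene chinmo, which sets early-born fates in the mushroom body, was highest at 33.1 CPM per kb. It had an implied 463 CPM in bantam sponge and 372 CPM in scramble sponge, with a log2 fold change of 0.31 (−2.92 to 3.55, exact p = 0.837 in the authors' deposited table). The fate gene mamo, which lies downstream of chinmo in Kenyon cell development, had the most exonic bases of the factors, 29476, and stood at 4.37 CPM per kb. Its implied means were 129 CPM and 128 CPM, at an exact p of 0.995 in the authors' deposited table.

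The ecdysone-response gene br was at 6.79 CPM per kb (log2 fold change −1.22, −6.45 to 4.02, authors' deposited table) and the dendrite factor ab at 5.70 CPM per kb (0.34, −7.89 to 8.58, authors' deposited table). The repressor gene ttk, known for blocking neuronal fate in non-neuronal cells, had 1, 1942 and 0 reads in the bantam sponge libraries and 1, 0 and 1 in those of scramble sponge. Its exact p in the authors' deposited table was 0.159, and 99.5% of its CPM lay in the middle bantam sponge library.

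Among the remaining members, crp, tna and Imp had genotype means several-fold apart, and none of them reached an unadjusted p under 0.05. The gene cropped (crp, 2L, 16263556 to 16287730, minus strand) encodes a basic helix-loop-helix leucine-zipper protein known for dendrite and tracheal branching. It stood at 61.1 CPM per kb, with an implied 477 CPM in bantam sponge and 61.1 CPM in scramble sponge. Its log2 fold change was 2.96 (−0.51 to 6.44), with an exact p of 0.0879 and, after Benjamini-Hochberg adjustment of the authors' deposited table, an adjusted p of 1. The zinc-finger gene tna (tonalli, 3L, 10835528 to 10876496, plus strand), a partner of chromatin remodelling complexes, lay in the opposite direction. It had 80.8 CPM in bantam sponge and 456 CPM in scramble sponge, a log2 fold change of −2.50 (−6.06 to 1.07, exact p = 0.152 in the authors' deposited table).

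The zinc-finger gene jim was the second most abundant factor before correction for length, at 669 CPM, and at 46.9 CPM per kb. Its log2 fold change was 0.43 (−2.57 to 3.43, exact p = 0.766 in the authors' deposited table). Imp, the RNA-binding protein that opposes Syp in setting birth-order identity, was at 3.27 CPM per kb, below the 21.1 CPM per kb of Syp. Imp had an implied 16.6 CPM in bantam sponge and 72.6 CPM in scramble sponge (log2 fold change −2.13, −11.38 to 7.13, authors' deposited table). Syp had 363 CPM and 111 CPM (1.71, −1.82 to 5.24, authors' deposited table). Imp shares 14.3% of its exonic bases with lncRNA:CR45204 on the same strand, so that reads there cannot be told apart. Of the other factors with reads, pros, hth, jim, ab, br and tna share 0.105% to 2.61% of their exonic bases with a gene on the opposite strand, and these libraries do not mark strand.

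**Figure D3:**
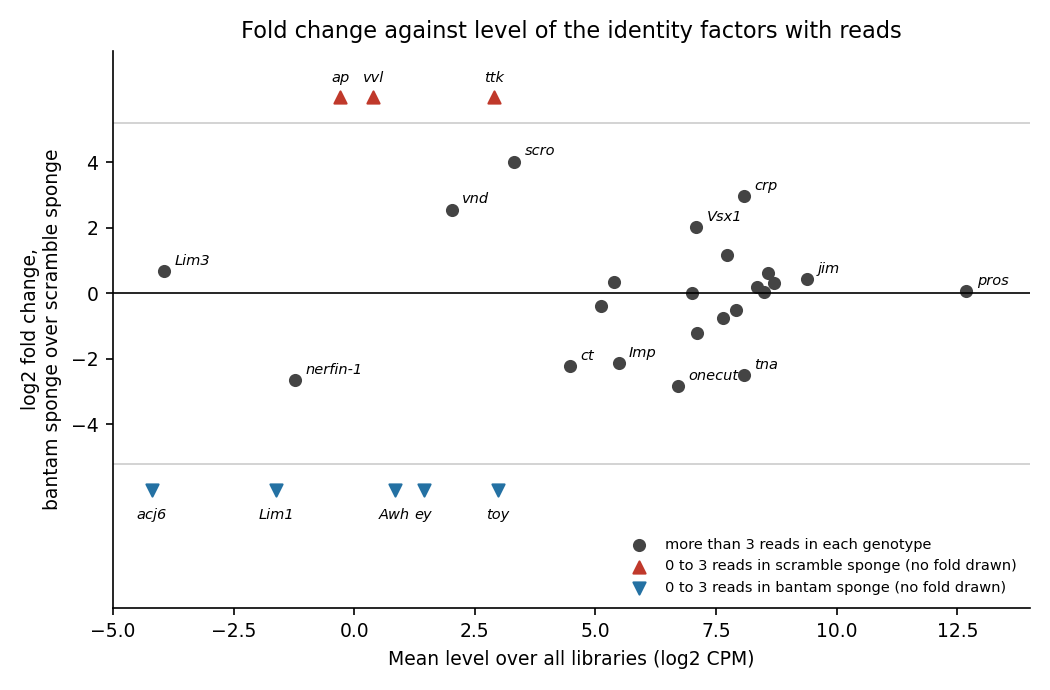
log2 ratio of bantam sponge to scramble sponge against the mean level over all 6 libraries in log2 CPM, for the 31 identity factors with reads. Triangles outside the grey lines mark the 8 factors with 0 to 3 reads in 1 genotype, placed by level only because their fold is not bounded by the data.

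Reads in 1 genotype only were found for 6 factors (19.4% of the 31), against 25.5% of all genes with reads. These were vvl and ap in bantam sponge and acj6, Lim1, Awh and ey in scramble sponge. In each of the 6 the reads came from 1 library of the 3. A count of 0 over the 3 libraries allows up to 0.0175 CPM in bantam sponge and 0.0204 CPM in scramble sponge, counting error only. No factor read in 1 genotype reached an unadjusted p under 0.05, and their exact p-values in the authors' deposited table ran from 0.154 for Awh to 0.657 for acj6.

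Many of the scarce factors had most of their reads in 1 library, while ct was read in 5 libraries, scro, vnd and nerfin-1 in 3 each and Lim3 in 2. Of the 12 with solved counts and at least 10 reads, 7 (58.3%) had 90% or more of their CPM in 1 library. Without ct, which lies above a mean log2 CPM of 3.5, it was 7 of 11 (63.6%). Among all 1714 genes so solved up to that level the share was 69.8%. The libraries that held most of a factor were spread over both genotypes, with 6 of the 12 highest in a bantam sponge library. In 0 of the 13 solved factors did the levels of the 2 genotypes separate without overlap, and in 0 of the 12 up to that same level, against 2.19% of all genes solved there. At equal CPM, the 1025 reads of Awh in the largest scramble sponge library would be 456 reads in the middle one, which had 0. Likewise the 906 reads of vvl would be 333 in the middle bantam sponge library, which had 0.

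**Figure D4:**
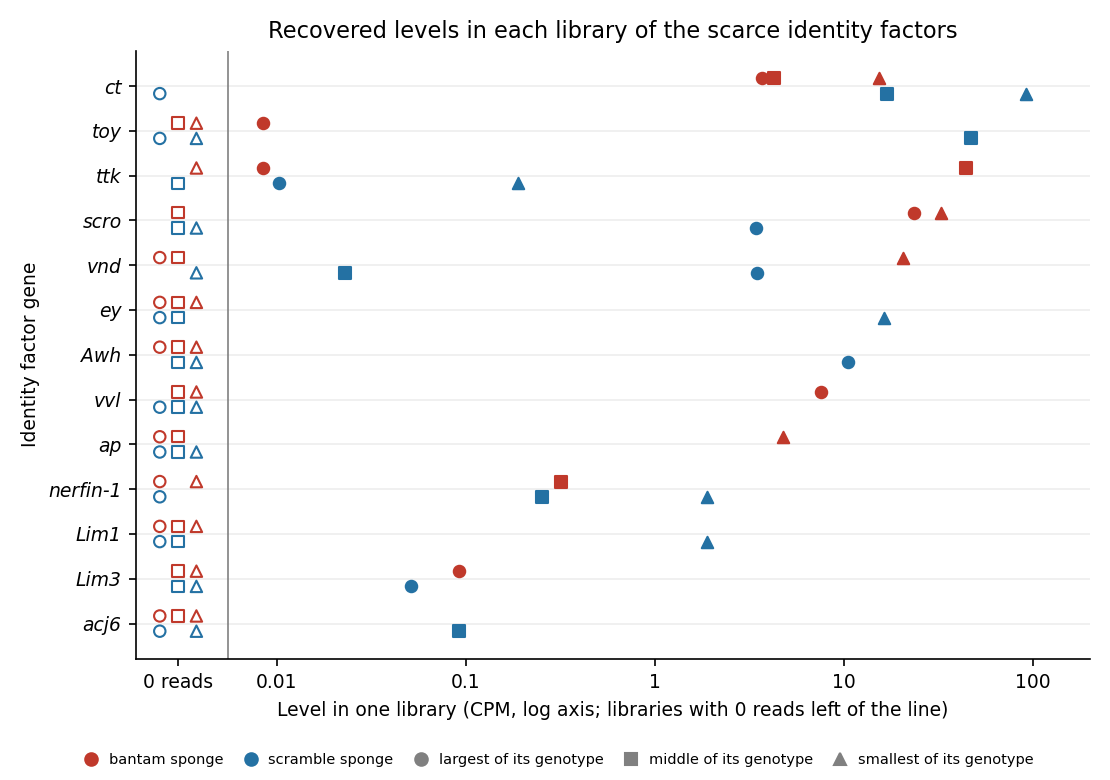
Level in each of the 6 libraries, in CPM on a log axis, of the 13 identity factors whose read counts could be solved; open symbols left of the grey line are libraries with 0 reads. Most factors have 1 filled symbol at 1 CPM or more, in either genotype, and ct is the one factor read in 5 libraries.

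Related factor families outside the 41 were read alongside. Of 52 other homeobox genes 27 had reads, 11 with folds above 0 and 16 below, none at an unadjusted p under 0.05. Their median fold was −1.64, and 0 when the genes read in 1 genotype were set at the bound that 3 reads give. The highest per length was Optix, a gene of the sine oculis family, at 241 CPM per kb (log2 fold change 0.48, −2.50 to 3.47, authors' deposited table). CG34367 was at 17.5 CPM per kb.

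Of 16 other BTB zinc-finger genes 13 had reads, 9 above 0 and 4 below (median 0.27). CG3726, CG6765 and CG8924 were highest, at 77.7, 49.7 and 42.3 CPM per kb. The limb and ovary factor bab2 was the one gene of that family at an unadjusted p under 0.05 (exact p = 0.0405 in the authors' deposited table). It had no read in bantam sponge, and 99.9% of its CPM lay in the middle scramble sponge library.

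Of 31 other basic helix-loop-helix genes 16 had reads, 9 above 0 and 7 below, with a median of 0.29, or 0.05 with the bound. The inhibitor emc led them at 278 CPM per kb, with sage at 55.2 and Oli, a motor neuron factor, at 54.3. Of 14 temporal factors of neuroblasts 9 had reads, 5 above 0 and 4 below (median 1.01), with lin-28 at 14.5 and danr at 6.46 CPM per kb after Syp. Of 11 stem cell and division genes 5 had reads, 2 above 0 and 3 below (median −0.17, or 0 with the bound). Of these brat was highest at 6.82 CPM per kb, followed by dpn and CycB at 1.63 and 0.218. The neuroblast gene dpn had 2366 reads, all in the largest bantam sponge library, and shares 59.3% of its exonic bases with asRNA:CR44275 on the opposite strand. None of these 3 families had a gene at an unadjusted p under 0.05.

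Marker lists of cell types were read in the same libraries. Of 22 transmitter and pan-neuronal genes 21 had reads, 8 with folds above 0 and 13 below (median −0.61), at summed implied levels of 7708 CPM in bantam sponge and 7839 CPM in scramble sponge. After nSyb and VGlut the highest was Appl, at 179 CPM per kb. Some markers of other transmitters were in the top 25% per length too. Ddc (monoamine synthesis) was at 128 and SerT (serotonin uptake) at 81.6 CPM per kb, with ChAT (acetylcholine synthesis) between them. ChAT had an implied 470 CPM in bantam sponge and 252 CPM in scramble sponge. Its log2 fold change was 0.90 (−2.89 to 4.70, exact p = 0.609 in the authors' deposited table). The GABA markers VGAT and Gad1 were at 39.8 and 26.6 CPM per kb, and Trh was at 0. The other acetylcholine and monoamine markers, ple among them, lay below the top 25% as well. VAChT (acetylcholine) was at 4.13 CPM per kb, with a log2 fold change of −1.23 (authors' deposited table), opposite in sign to ChAT. Tdc2, Tbh and DAT were at 3.96, 1.76 and 0.346 CPM per kb, and Vmat and Hdc had 10 reads and 1 read. Nearly all the CPM of Tdc2 and Tbh lay in the smallest scramble sponge library. All 7 glial markers had reads, 5 above 0 and 2 below (median 1.10), at a summed 2013 and 1007 CPM. They were led by Gs2, nrv2 and alrm at 406, 89.0 and 56.2 CPM per kb. The glial fate gene repo had an implied 0.980 CPM in bantam sponge and 102 CPM in scramble sponge. Its log2 fold change was −6.70 (−13.50 to 0.10, exact p = 0.0525 in the authors' deposited table).

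The non-neural markers were lower and less even. Of 5 hemocyte markers 4 had reads, 1 above 0 and 3 below (median −8.50, or −7.05 with the bound), at a summed 728 and 467 CPM. Pxn, at 98.4 CPM per kb, far exceeded NimC1 at 0.838 and srp at 0.796, and He was at 0. All 5 fat body markers had reads, 2 above 0 and 3 below (median −6.68), at 231 and 175 CPM, with FASN1 highest at 18.8 CPM per kb. The yolk protein genes Yp1 and Yp3, at 10.2 and 8.12 CPM per kb, had 0 and 1 reads in all bantam sponge libraries. Yp1 had 602, 4021 and 0 reads in the largest, middle and smallest scramble sponge libraries, and Yp3 had 1, 1529 and 297. In CPM, Yp1 was thus highest in the middle library, at 92.3, and Yp3 in the smallest, at 56.0 against 35.1 in the middle one. Yp2 had 18 reads in the middle bantam sponge library and 232 in the smallest scramble sponge library. Of the exonic bases of Yp1, 54.3% are shared with asRNA:CR45601 on the opposite strand. Most reads of toy were in the middle scramble sponge library and all those of ey in the smallest. The same libraries held all reads of other listed genes, such as the hemocyte marker Hml (1183) in the middle one and the homeobox gene Gsc (122) in the smallest. The unadjusted exact p of Yp1 and Yp3 in the authors' deposited table was 0.0335 and 0.0271. The part of such cells in the levels of the factors was not tested.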

How the data were processed

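Poly(A) RNA of sorted neurons was made into libraries by SMART-seq2 and Nextera XT, per the labels' protocols. The design text gives paired 75-base NextSeq reads for 2 of the biological replicates and paired 150-base HiSeq reads for the other 1, and does not say which library is which. Reads were aligned to dm6 with STAR and compared with edgeR, and Picard and HTSeq are named besides, per the submitters' processing notes, without versions. The log2 fold changes and mean log2 CPM values were computed by the authors with edgeR, per the file headers. The p-values are the authors' unadjusted exact-test values, per the file headers and name; adjustment over all rows was done here.

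The members and the gene lists were chosen with earlier results of these data known. Genes named are members past a threshold, read in 1 genotype, with the 12 highest levels per kb, with the 5 largest folds in each direction, or with no read, and from other lists the 3 highest per kb and any with an unadjusted p under 0.05. One gene that this rule names is not reported here.

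Genes with 1 read in 1 library gave the 6 effective library sizes (which include any normalization factor) and the common dispersion of 4.50. This takes the tool's default prior counts, 2 for the mean and 0.125 for the fold. Whole read counts per library were then searched for that give back the deposited mean (within 5e-13), fold and p (within 1e-08). A single solution was found for 3020 of 3291 genes with a mean log2 CPM up to 3.5 (91.8%), and more than 1 for 0 genes. Members were searched up to 4.5. The 267 genes whose search stopped at a limit are left out of shares over solved genes. Intervals come from the dispersion at which the fold gives the deposited p, for genes read in both genotypes, at a mean log2 CPM of at least 3 and an absolute fold of at least 0.02. The search and sizes were tested on simulated data. The interval formula was simulated only with a known dispersion and no difference between genotypes. The coverage of intervals whose dispersion is solved from the fold and p was not tested. Levels per kb use the union of exons of Ensembl release 115, in which 16959 of the 17117 symbols found a gene, 3695 of them by an older symbol. Analyses used Python 3.11.15, numpy 2.4.6, scipy 1.17.1 and numba 0.67.0. No sequence is shown, since no genome or sequence table was used here.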

Additional observations from a re-analysis of the deposited data

How the results depend on the processing

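The count of factors past the adjusted threshold stayed at 0 with Holm adjustment and with adjustment over genes with reads or over genes at a mean log2 CPM of at least 3. At an unadjusted p the count was 0 at 0.01 and at 0.05, and 2 at 0.1. Factors with reads numbered 31, 26 at a mean log2 CPM of at least 0 and 20 at one of at least 3. Leaving out each library in turn gave 29 to 31, an alternative chosen after seeing the data. Factors read in 1 genotype numbered 6, 7 with the gap between fold and level set 1 lower, and 3 with it set 1 higher; the solved read counts show 6. Abundant factors numbered 7 in the top 25%, 14 in the top 50%, 1 in the top 10% and 14 with no length correction, where long genes rank higher. Length by the longest transcript also gave 7. The median fold of 0.04 moved to 0.05 at a mean log2 CPM of at least 3, 0.06 for factors read in both genotypes and 0.003 when centred on abundant genes, and the median half-width of 3.71 to 3.42 with a normal quantile. Factors with most of their CPM in 1 library numbered 8 at a share of 80% and 7 at 95%, both chosen after seeing the data.

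No paired analysis was possible because the table holds no column per library, and the libraries solved from it carry no replicate number. No refit leaving out a library was made, for the same reason. The planned count of bantam seed matches in 3′ UTRs was not run, as no sequence was used here. With library sizes that differ by 22.4 times, the smallest library of each genotype sets the limit for scarce factors: 3 reads are 0.367 CPM in that of bantam sponge and 0.565 CPM in that of scramble sponge.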

Other observations

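Other factor genes outside the 41 were also read mostly or wholly in 1 library each, at high counts. The homeobox gene zfh2 had 15891 reads, all in the largest bantam sponge library, and achi had 2097 there as well. Of the exonic bases of zfh2, 18.7% are shared with Tdg on the opposite strand. In the middle scramble sponge library bab2 had 7005 reads and zfh1 1012, with 1 read of each in the smallest library of that genotype. The Iroquois gene mirr had 1698 reads in the largest scramble sponge library and 15 in the smallest bantam sponge library. These genes were chosen after their values were seen, and why reads of a gene lie in 1 library was not tested.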
